A study of Schizosaccharomyces pombe with 15 samples.

Results

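Narrow, well-expressed clusters of transcription start sites were examined in the fission yeast Schizosaccharomyces pombe, where cap analysis of gene expression (CAGE) had mapped the capped 5′ ends of RNA. A cluster is a stretch of the genome in which the authors grouped neighbouring start positions. Clusters were chosen by 2 measured values: a width of 100 bp or less, and a deposited mean over all libraries of at least 5 CPM, the tags of a cluster scaled to a library total of 1000000. This gave 568 of 13003 clusters. Of the 2379 clusters of 100 bp or less, the other 1811 were below 5 CPM. The 15 libraries came from wild-type cells of strain h-S 972, with 3 parallel cultures in each of 5 groups. Cultures grew at 30 °C in the minimal medium EMM or the rich medium YES without stress. Nitrogen-starved cultures had been moved from minimal medium to the same medium without ammonium chloride for 16 h at 30 °C. Rich-medium cultures were either moved to 39 °C for 15 min (heat) or given 0.5 mM H2O2 for 15 min at 30 °C. All groups share the strain, and every library is from a bulk culture, so a change in each cell cannot be told apart from a change in the share of cells that use a start site.

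RNA polymerase II begins transcription at a narrow site where a TATA box or another strong core element fixes its position, and over a wider stretch where many weak positions are used. In fission yeast the first base is usually a purine preceded by a pyrimidine, and the TATA box, where there is one, lies a short way upstream. Ribosomal protein promoters of this yeast often carry the Homol-D box, which takes the place of a TATA box. Atf1, a bZIP factor, binds the TGACGT core upstream of many stress genes, and heat shock factor binds repeats of the GAA unit.

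The sequences below are those of 5 of the most abundant narrow clusters, all at translation genes described later. The cluster of rpl29, which ranks above rpl4101 and would carry neither of the motifs marked below, is not shown. Each runs from 75 bases before the CAGE peak to 20 bases from it, 5′ to 3′ along the transcribed strand. Capitals mark the first transcribed base at the peak, the Homol-D box CAGTCACA or its reverse complement, and TATA where it starts 45 to 20 bases upstream. Sequences are from RefSeq, read at the deposited coordinates.
rpl2401 (chrI:3261926-3262020, minus strand): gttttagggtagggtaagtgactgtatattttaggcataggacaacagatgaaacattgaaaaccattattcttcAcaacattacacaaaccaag
tef101 (chrIII:269497-269591, minus strand): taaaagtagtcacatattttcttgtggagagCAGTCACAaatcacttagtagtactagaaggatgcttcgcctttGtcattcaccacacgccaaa
rpl1201 (chrIII:691627-691721, minus strand): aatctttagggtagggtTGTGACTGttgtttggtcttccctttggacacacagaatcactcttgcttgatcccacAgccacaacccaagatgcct
rps2201 (chrI:1162639-1162733, minus strand): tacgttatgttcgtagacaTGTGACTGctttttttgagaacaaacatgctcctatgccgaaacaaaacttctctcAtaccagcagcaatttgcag
rpl4101 (chrI:5402227-5402321, minus strand): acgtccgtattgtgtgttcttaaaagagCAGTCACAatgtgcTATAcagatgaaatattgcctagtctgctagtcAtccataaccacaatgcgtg

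The next set holds the narrow clusters with the largest increases in 4 comparisons, from 50 bases before the peak to 20 bases from it. They are the first 3 increases after nitrogen starvation, after heat, after H2O2 and in EMM against YES, in that order. Capitals mark the first transcribed base and the TATA or TATAAA that starts 45 to 20 bases upstream. The entry with no gene lies outside the genes the authors counted, and the trm44 entry is antisense to an annotated gene, as described with their values.
no gene (chrII:3979629-3979698, plus strand): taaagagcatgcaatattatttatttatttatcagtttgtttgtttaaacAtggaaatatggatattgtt
psu2 (chrII:3467662-3467731, minus strand): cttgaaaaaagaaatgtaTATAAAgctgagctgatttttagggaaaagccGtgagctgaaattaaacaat
fur4 (chrI:1844204-1844273, minus strand): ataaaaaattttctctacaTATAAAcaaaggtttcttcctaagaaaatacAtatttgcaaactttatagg
SPCPB16A4.06c (chrIII:957585-957654, minus strand): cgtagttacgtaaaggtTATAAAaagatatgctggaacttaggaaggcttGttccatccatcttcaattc
SPNCRNA.1529 (chrII:2572259-2572328, minus strand): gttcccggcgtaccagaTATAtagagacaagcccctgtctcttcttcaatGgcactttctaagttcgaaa
SPBC1105.13c (chrII:3532570-3532639, minus strand): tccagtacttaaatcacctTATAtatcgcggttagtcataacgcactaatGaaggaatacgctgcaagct
trm44 (chrIII:1649541-1649610, plus strand): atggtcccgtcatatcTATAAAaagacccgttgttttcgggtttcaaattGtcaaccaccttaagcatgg
osr1 (chrIII:1645912-1645981, minus strand): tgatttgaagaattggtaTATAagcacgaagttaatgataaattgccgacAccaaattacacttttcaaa
SPCC663.08c (chrIII:1648799-1648868, minus strand): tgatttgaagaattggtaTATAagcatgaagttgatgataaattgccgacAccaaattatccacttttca
SPNCRNA.1415 (chrII:1150829-1150898, minus strand): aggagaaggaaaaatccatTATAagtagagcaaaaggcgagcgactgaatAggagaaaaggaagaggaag
ubp11 (chrII:1679160-1679229, minus strand): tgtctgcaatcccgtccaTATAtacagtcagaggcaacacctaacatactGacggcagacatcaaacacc
omt3 (chrI:4515962-4516031, plus strand): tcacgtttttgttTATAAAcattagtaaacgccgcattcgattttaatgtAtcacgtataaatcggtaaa

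Of the narrow clusters, 473 of 568 (83.3%) had their peak at an annotated mRNA 5′ end, at a distance of 100 bp or less, and in 407 of these the peak was the annotated first base. Of the 4939 wider clusters of at least 5 CPM, 76% were at an mRNA 5′ end, and of all clusters 35.8%. The remaining narrow clusters comprised 28 in noncoding genes or pseudogenes, 9 in coding exons, 8 each in 5′ and 3′ UTRs, 3 antisense to an annotated gene and 39 elsewhere. The authors' gene totals placed 562 of them in 558 genes. For 289 the narrow cluster was the gene's sole start cluster. Among the 273 that share a gene with other clusters, 224 were the highest of the gene. At least 90% of the gene's tags started at the narrow cluster in 418 cases, and under 1% in 7.

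Those 7 include 4 coding-exon clusters of highly expressed genes, of tdh1 (glyceraldehyde-3-phosphate dehydrogenase), tef103 (elongation factor EF-1 alpha), rpl801 (a ribosomal protein) and mae2 (a malic enzyme). These hold 0.053%, 0.035%, 0.141% and 0.42% of their gene's tags. The first 27 bases of 7 narrow clusters had a near copy elsewhere with at most 2 mismatches. They belong to tdh1, tef103, the coding-exon start of mae2, wtf10, wtf20, wtf21 and wtf24, whose tags the authors' alignment could split or misplace. The wtf genes are a family that includes spore killers.

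Width and mean level chose the clusters and are given as a description. Widths ran from 16 to 100 bp with a median of 84 bp, and deposited means from 5.00 to 2433 CPM with a median of 16.7 CPM. Among clusters of at least 5 CPM, the 98 with widths of 96 to 100 bp had a median of 19.2 CPM and the 97 with widths of 101 to 105 bp a median of 17.8 CPM. Just inside the level limit, 29 narrow clusters had 5 to 5.5 CPM, and just outside it 22 had 4.5 to 5 CPM. Levels passed 100 CPM in 51 narrow clusters and 1000 CPM in 5. Narrow clusters made up 8.44% of the clusters of at least 5 CPM on chromosome I, 10.7% on chromosome II and 14.2% on chromosome III. They held 3.37% ± 0.13 of a library's tags in EMM and 2.68% ± 0.08 in the starved group. The share was 3.69% ± 0.15 for unstressed YES cultures, 3.76% ± 0.10 with H2O2 and 2.96% ± 0.17 with heat (SD, n = 3 each). The starved and the heated libraries were each below all 3 of their unstressed counterparts. The sum is weighted to the few most abundant clusters and uses unscaled library totals. With TMM-scaled totals, the median level of the narrow clusters was 15.6 to 16.9 CPM in EMM against 17.7 to 19.0 starved. It was 14.0 to 14.8 in YES against 15.0 to 15.2 heated. The median of their log2 changes was −0.08 in both comparisons with TMM scaling, and 0.40 and −0.25 with library totals. The direction at the median narrow cluster thus depends on the scaling and the measure.

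The level limit also fixes some differences between groups. A cluster whose mean over the other 12 libraries is below 5 CPM was chosen through the 1 group where it is high, which held for 51 narrow clusters in starvation, 17 in EMM, 13 in heat, 9 in YES and 7 in H2O2. For these, the difference of that group from the others is a description, and no p is given for it. They also enter the counts of calls below.

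**Figure D1:**
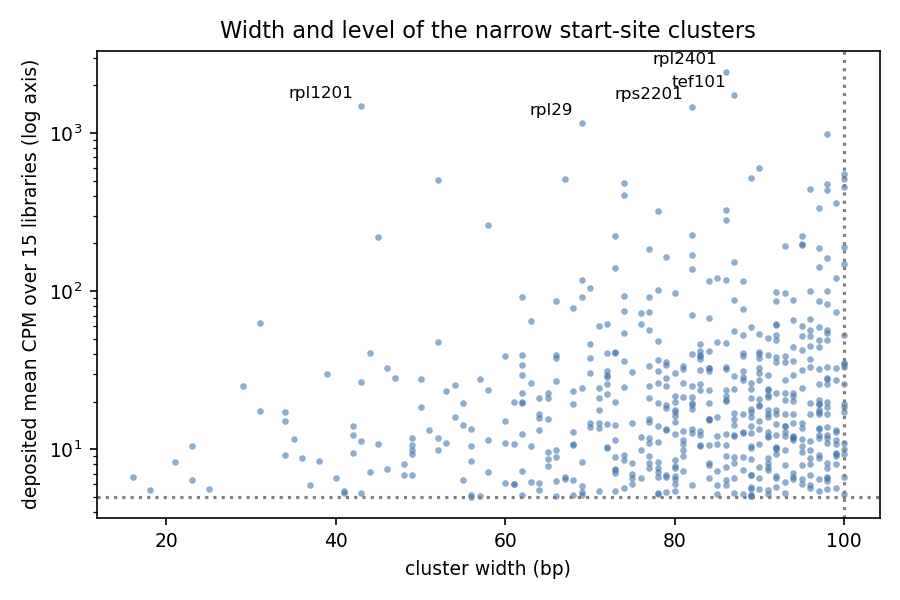
Width in bp against deposited mean CPM on a log axis for the 568 narrow clusters, 1 point each, with dotted lines at the limits of 100 bp and 5 CPM. The 5 highest clusters, named in the plot, all lie above 1000 CPM, and widths crowd toward the upper limit.

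The peak base followed the yeast's start-site rule more often in narrow clusters than in the whole table. A pyrimidine followed by a purine stood at the step into the peak in 549 of 568 narrow clusters (96.7%, exact 95% interval 94.8 to 98.0), in 93.8% of wider clusters of at least 5 CPM and in 85.1% of all clusters. TA led with 36.8% of narrow clusters, then CA with 35.0%, TG with 19.4% and CG with 5.46%.

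The motif TATA started 45 to 20 bases before the peak in 151 narrow clusters (26.6%, interval 23.0 to 30.4), against 26% of wider and 22.7% of all clusters. The longer TATAAA was there in 34 narrow clusters (5.99%), against 5.61% and 4.83%. A narrow cluster therefore held a TATA motif about as often as a wider one of at least 5 CPM, and the interval covers the wider share. Where present, TATA started a median of 32 bases before the peak, with 102 of the 151 at 30 to 34 bases. The intervals here and above cover counting error only, and clusters are not independent of each other.

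**Figure D2:**
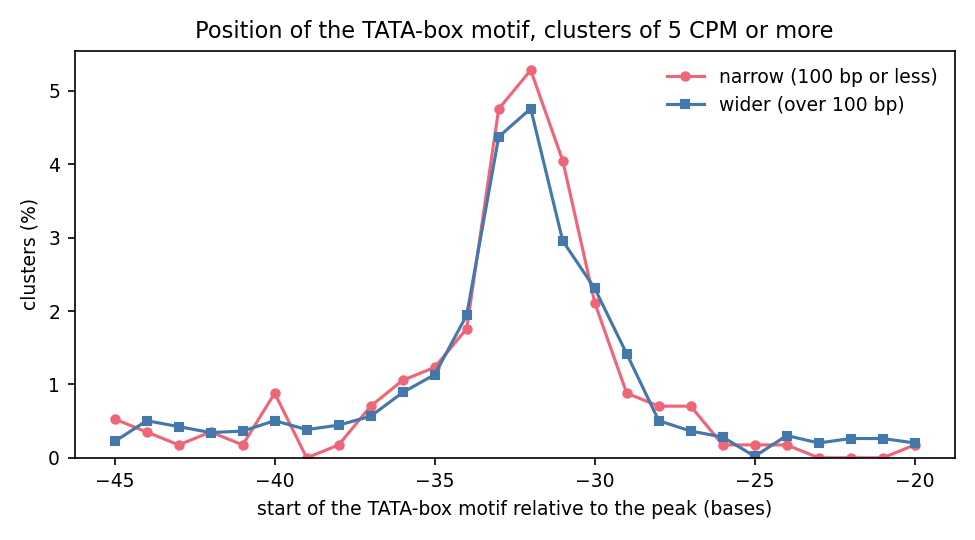
Percentage of clusters of at least 5 CPM whose TATA-box motif starts at each base before the peak, for narrow and for wider clusters. Both sets peak at 32 bases before the peak, with 5.28% of narrow and 4.76% of wider clusters.

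Of the motifs searched on both strands within 250 bases before the peak, the Homol-D box CAGTCACA occurred in 23 narrow clusters (4.05%), against 2.53% of wider and 1.57% of all clusters. Its median distance to the peak was 50 bases, with quartiles of 47 and 56.5. ACCCTACC, the start of the Homol-E box, occurred in 2.29%, 1.44% and 1.02% of the 3 sets, and AACCCT, which overlaps it in part, in 8.98%, 8.63% and 8.43%. TGACGT, the Atf1 core, was found in 46 narrow clusters (8.10%), against 5.99% and 5.52%. GAANNTTC, a heat shock element core, was found in 8.63% of narrow clusters against 9.62% and 10.7%. A match is a run of letters and not a shown binding site.

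The translation machinery supplied the most abundant narrow clusters. Of the 10 with the highest mean, 8 serve translation: rpl2401, rpl1201, rps2201, rpl29, rpl4101 and rpl39, which encode ribosomal proteins, tef101, which encodes elongation factor EF-1 alpha, and int6, which encodes a translation initiation factor. The other two were elo2, of the fatty acid elongase family, and SPCC663.08c, a short chain dehydrogenase, whose rank rests on the H2O2 libraries, since the other 12 had at most 35.1 CPM. Levels of rpl2401 were lowest in starved cultures, with 867, 1091 and 742 CPM, where their EMM counterparts had 3363, 3196 and 2888. The rich-medium libraries had 4204, 3627 and 3160 CPM unstressed, 3255, 2736 and 2491 with H2O2, and 2111, 2153 and 2231 when heated. Heated libraries came next above the starved, and neither group overlapped its control. elo2 fell after starvation, from 722, 922 and 917 CPM in EMM to 256, 228 and 166, and after heat, from 870, 756 and 783 CPM in YES to 213, 255 and 236. Its log2 changes were −1.98 ± 0.17 and −1.77 ± 0.17 (SE; edgeR adjusted p 1.12e-08 and 1.02e-07).

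Nitrogen starvation changed most narrow clusters. In edgeR's quasi-likelihood test, with Benjamini-Hochberg adjustment over all 13003 clusters and a threshold of 0.05, 365 of 568 (64.3%) passed in nitrogen starvation against EMM, 160 higher and 205 lower. The background over all clusters was 66.9% called, 36.5% higher and 30.3% lower, and among wider clusters of at least 5 CPM 70.4% were called. The share of narrow clusters called thus lay near the background. Of the narrow calls 43.8% were higher with TMM scaling and 71.2% with library totals alone, which moved the median log2 change of all clusters from 0.10 to 0.58. Higher and lower are meant relative to the TMM-scaled totals throughout.

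Every narrow ribosomal protein cluster fell in starvation. The 26 such clusters, of 138 ribosomal protein genes in all, were 26 of 26 lower, with a median log2 change of −1.83 and a range of −3.05 to −0.61. Library totals alone left 23 of 26 lower, and DESeq2 size factors 25. The main clusters of all 138 genes had a median of −1.83 and 134 passed as lower, so the narrow ones did as the others of their family did. Summed over the 26 clusters, the level was 16175, 15539 and 16090 CPM in EMM and 4778, 4506 and 3486 CPM in the starved libraries. rps2201 (40S protein uS8) led, with 1900, 1573 and 1660 CPM in EMM against 235, 199 and 186 starved, a log2 change of −3.05 ± 0.23 (SE; edgeR adjusted p 3.04e-09). The smallest fall was in rpl3801, from 9.04, 8.36 and 8.53 CPM to 5.98, 7.58 and 3.49.

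Homol-D boxes were present in 14 of these 26 ribosomal protein clusters and TATA in 3. Among all 23 narrow clusters with the Homol-D box, 18 (78.3%) were lower in starvation, against 34.3% of the 545 narrow clusters without it, and among wider clusters the shares were 84.8% and 38.0%. These 23 include the 14 ribosomal protein clusters, and all 26 of that family fell, with or without the box. Heat lowered 5 of the 26 ribosomal protein clusters (19.2%), rpl2401, rpl29, rpl3402, rpl2702 and rpl1202, between the 15.4% of all clusters and the 22.2% of narrow ones that were lower. H2O2 lowered 1 (3.85%), rpl3402, against 5.95% of all clusters, and EMM against YES raised 1, rpl1801, against 5.98%. These shares lay near the background. The median log2 change over the 26 was −0.17 in heat and −0.20 in H2O2.

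tef101 fell along with them, from 2855, 1309 and 1696 CPM in EMM to 449, 346 and 528, with a log2 change of −2.15 ± 0.34 (edgeR adjusted p 5.20e-05). Of the 3 narrow clusters at translation factor genes, the coding-exon cluster of tef103 also fell, and sui1, an initiation factor gene, rose from 17.8, 19.3 and 21.9 CPM to 16.1, 48.7 and 64.5, where the lowest starved library lay below all EMM libraries.

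Of the 6 largest increases in starvation, 5 were at clusters chosen through the starved libraries, all but mel1. At 22 narrow clusters the group mean reached 5 CPM in starvation alone, a count that the level limit helps to set. The highest was omt3, a meiosis-specific long noncoding RNA that forms nuclear foci, with 139, 141 and 163 CPM starved and 5.32, 4.27 and 4.29 in EMM. A cluster with no gene in the authors' table, on the plus strand of chromosome II at 3979659 to 3979757, rose from 0.073, 0.061 and 0.051 CPM to 20.9, 23.1 and 23.3. It starts inside the annotated noncoding RNA SPNCRNA.6378. EMM held 3 tags there in all, and starvation 1532, a ratio of 370.4 with a counting interval of 126.5 to 1798.

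psu2, which encodes a beta-glucosidase, had 0, 0.244 and 0.153 CPM in EMM and 45.4, 24.0 and 54.3 starved, a log2 change of 8.13 ± 0.45 (SE). fur4, which encodes the uracil transporter of the plasma membrane, had a log2 change of 7.82 ± 0.53, from 0.219, 0.183 and 0.153 CPM to 32.5, 22.7 and 72.4. Both groups stood fully apart at each. SPNCRNA.1364, mel1, which encodes a melibiase, and SPNCRNA.1068 followed, with log2 changes of 6.87, 6.57 and 6.20. mel1 was not limited to starvation: it had 21.9, 20.7 and 17.5 CPM starved, 15.7, 11.1 and 20.8 after H2O2, 6.33, 9.52 and 7.95 after heat and at most 1.33 in unstressed cultures. The starved libraries of SPNCRNA.1068 spread widely, at 11.9, 74.8 and 121 CPM.

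Among the largest decreases in starvation, the coding-exon cluster of isp3, a gene known for its rise in sexual development, fell from 15.7, 15.4 and 15.0 CPM to 0.472, 0.636 and 0.310. This cluster held 78.7% of the tags of its gene over all libraries. The 16 bp cluster assigned to SPCC191.06, which lies antisense to SPCC191.05c, fell from 13.3, 9.82 and 11.4 CPM to 0.433, 1.27 and 0.543. SPNCRNA.1529 fell from 0.656, 0.366 and 0.511 CPM to 0.039, 0.116 and 0, where the starved group held 3 tags, a ratio of 11.5 with a counting interval of 3.51 to 59.4.

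Heat changed fewer of them. In heat against YES, 225 of 568 narrow clusters (39.6%) passed in edgeR, 99 higher and 126 lower. The background was 33.6% of all clusters, 18.2% higher and 15.4% lower, and 42.3% among wider clusters of at least 5 CPM. Of the narrow calls 44.0% were higher, and 31.7% with library totals, which moved the median log2 change of all clusters from −0.03 to −0.20. With a minimum log2 change of 1, 19 of the 28 narrow calls were higher. No share over all clusters is given for that test, and some of these increases were at clusters chosen through heat.

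Of the 6 largest heat increases, 5 were at clusters chosen through the heated libraries, all but SPAC4H3.03c. The largest was at the start assigned to SPCPB16A4.06c, an uncharacterized protein gene, whose peak lies in the annotated noncoding RNA SPNCRNA.1162. It had 0.228, 0.707 and 0.564 CPM in YES and 38.1, 52.1 and 16.8 after heat, a log2 change of 6.07 ± 0.60 (SE). SPNCRNA.1529 rose from 1.14, 0.442 and 0.615 CPM to 28.5, 27.5 and 30.4, and stayed at 0.358 to 0.641 CPM after H2O2. SPBC1105.13c, uncharacterized, rose from 1.25, 1.15 and 1.54 CPM to 42.0, 50.7 and 49.3, while the H2O2 libraries lay between at 5.58, 5.64 and 5.81. The heat groups of all 3 lay apart from every other group.

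SPAC4F10.17, uncharacterized, SPAC4H3.03c, a glucan 1,4-alpha-glucosidase, and a cluster with no gene on the minus strand of chromosome III at 348330 to 348402, within SPNCRNA.6808, were next with log2 changes of 4.48, 4.31 and 3.34. The largest decreases were those of SPNCRNA.772, gln1, tos4 and zrt1. gln1 encodes glutamine synthetase, and its narrow cluster, a minor start, fell from 7.41, 7.33 and 11.5 CPM to 1.05, 1.43 and 1.37. zrt1 encodes a zinc transporter and fell from 139, 144 and 156 CPM to 38.1, 31.8 and 33.0, a log2 change of −2.09 ± 0.18 (SE; edgeR adjusted p 3.06e-08). tos4, which encodes a transcription factor, fell from 38.9, 35.0 and 51.5 CPM to 8.05, 12.4 and 7.61.

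H2O2 lowered narrow clusters more often than it raised them. In H2O2 against YES, 112 of 568 (19.7%) passed in edgeR, 37 higher (6.51%) and 75 lower (13.2%). All clusters showed the reverse, with 15.4% called, 9.43% higher and 5.95% lower, and wider clusters of at least 5 CPM had 11.7% higher and 9.01% lower. Of the narrow calls 33.0% were higher, against 56.4% of the wider ones, and 37.9% and 61.1% with library totals. This difference in shares is a description, since clusters are not replicates. With a minimum log2 change of 1, 11 of the 13 narrow calls were higher, so few of the 75 decreases passed that stricter test. No share over all clusters is given for it. Its increases include trm44, osr1 and a start of mae2, which were chosen through the H2O2 libraries.

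A few narrow clusters moved far after H2O2. SPCC663.08c had 34, 31.3 and 24.8 CPM in YES and 2792, 1774 and 4167 after H2O2, and 17.5 to 35.1 CPM in the other 9 libraries. osr1, a dehydrogenase gene whose peak lies 2887 bp away on the same strand, had 4.22, 4.33 and 2.72 CPM in YES and 431, 252 and 658 after H2O2. In both, the H2O2 library of replicate 2 was lowest and that of replicate 3 highest. The log2 change was 6.60 ± 0.31 at SPCC663.08c (SE; edgeR adjusted p 9.27e-11) and 6.93 ± 0.36 at osr1, which was chosen through the H2O2 libraries. Compared position by position with no gaps, the 50 bases before the 2 peaks are identical at 48 positions, as the printed sequences show, and the 100 bases before them at 98. Over 250 bases the same count gives 60%, a value that any insertion or deletion would lower.

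On the other strand, with its peak 773 bp from that of SPCC663.08c, lay the narrow cluster with the largest log2 change in H2O2, 10.48 ± 0.59 (SE), on chromosome III at 1649552 to 1649650. It was chosen through the H2O2 libraries alone. The authors' totals assign it to trm44, a tRNA methyltransferase gene downstream, while its peak is antisense to SPCC663.09c. It had 46.5, 32.7 and 60.9 CPM after H2O2, and no library of the other 4 groups had more than 0.174 CPM. YES held 1 tag and H2O2 2704, a ratio of 1846 whose counting interval runs from 331.0 to 72941. Leaving out single libraries gave this cluster log2 changes of 9.68 to 12.7, a wider range than the SE spans. The 50 bases before its peak match those of osr1 at 15 positions, again with no gaps.

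mel1, SPAC4H3.03c and a start of mae2 came next with log2 changes of 3.62, 3.01 and 2.79. The mae2 start, also chosen through H2O2, lay upstream of the main one and rose from 3.08, 3.0 and 4.92 CPM to 24.9, 24.4 and 29.1, which was 0.805 to 0.864% of the gene's tags in those libraries. The largest decreases were at slp1, the Cdc20-type activator of the anaphase-promoting complex, whose mean is below 5 CPM without the EMM or without the YES libraries, omt3, llp1 and nog1. llp1 and nog1 act in ribosome biogenesis. nog1 fell from 260, 240 and 257 CPM to 94.2, 84.6 and 96.9, and llp1 from 131, 157 and 126 CPM to 58.8, 41.5 and 42.5. The omt3 call, at a log2 change of −1.65, was lost when H2O2 replicate 2 or 3 or YES replicate 1 or 2 was left out.

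**Figure D3:**
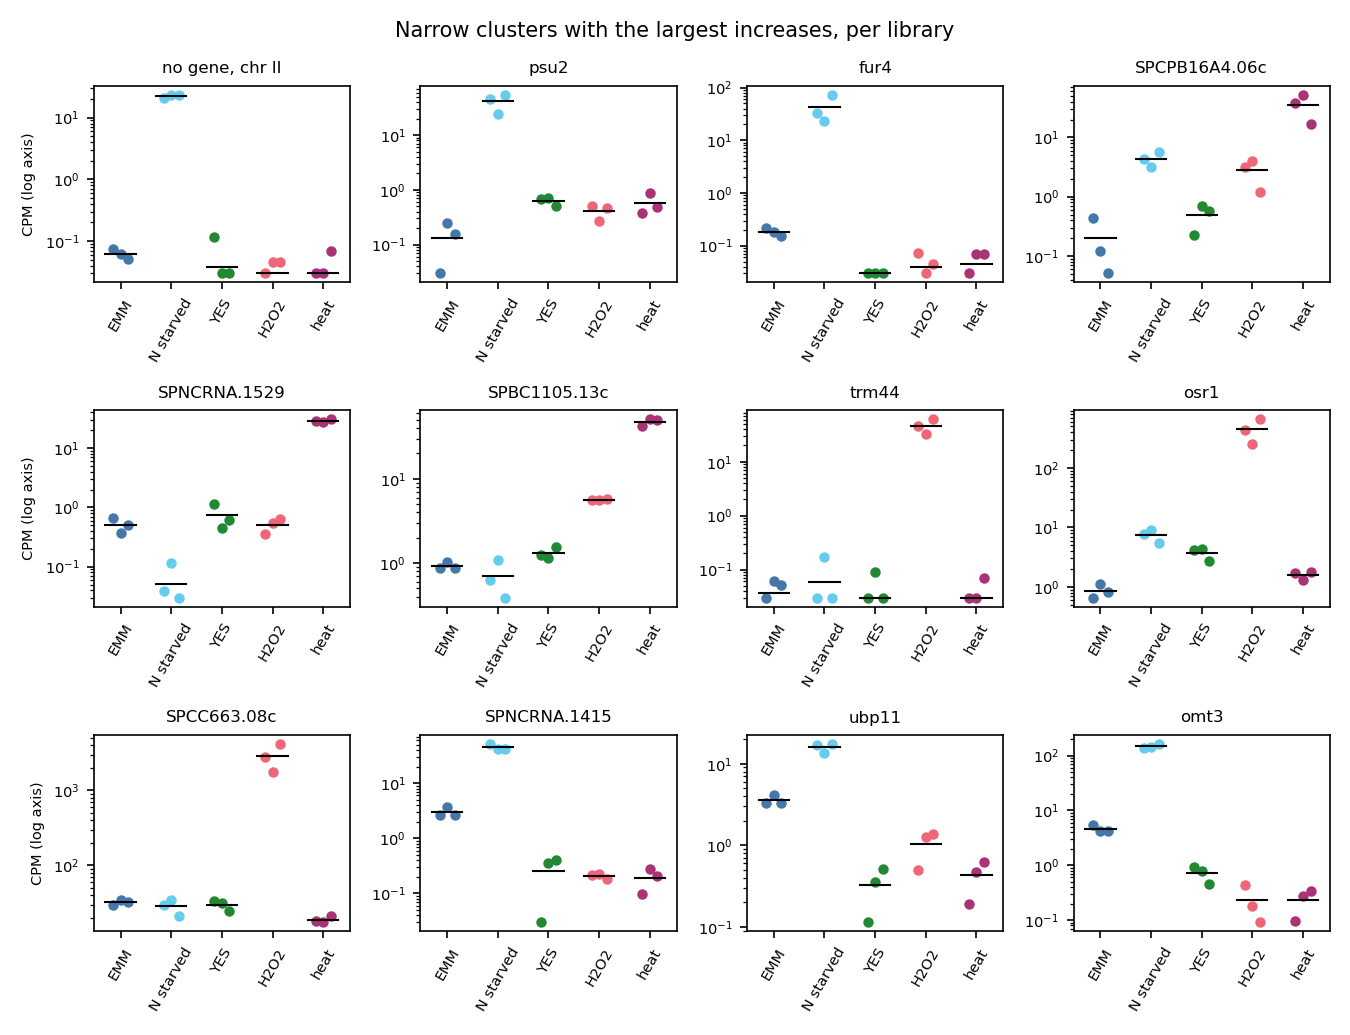
Level in CPM on a log axis in each of the 15 libraries for the narrow clusters with the 3 largest increases in 4 comparisons, with points for libraries and a line for the group mean. Values under 0.03 CPM are drawn at 0.03. The H2O2 libraries of trm44, osr1 and SPCC663.08c stand above every other library, as do the heat libraries of SPNCRNA.1529 and SPBC1105.13c.

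EMM against YES, the comparison of media, gave 60 calls among the 568 narrow clusters (10.6%) in edgeR, 38 higher and 22 lower. The background was 13.7%, with 5.98% higher and 7.74% lower. Of the narrow calls 63.3% were higher, and 46.0% with library totals. Leaving out EMM replicate 2 or 3 lowered the called share to 6.69% or 5.99%. SPNCRNA.1415 rose to 2.62, 3.72 and 2.66 CPM in EMM from 0, 0.353 and 0.410 in YES, and starvation carried it to 51.7, 42.3 and 41.8. The ubiquitin hydrolase gene ubp11 and omt3 had the same order, EMM above YES and starvation above EMM. SPNCRNA.1415, ubp11 and omt3 were each chosen through the starved libraries, so their starved level is a description. The mean of ubp11 is also below 5 CPM without the EMM libraries. pcl1, which encodes an iron transporter, had 14.3, 16.3 and 19 CPM in EMM against 3.53, 2.39 and 3.18, a log2 change of 2.45 ± 0.27 (SE), and was chosen through EMM.

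SPNCRNA.772 and spn7, a meiotic septin gene, were the other named increases, with log2 changes of 2.20 and 1.86. The largest decreases in EMM were those of SPAC977.15, of the dienelactone hydrolase family, mel1, SPAC2H10.01, annotated as a transcription factor, and osr1. SPAC977.15 fell to 0.875, 0.610 and 0.664 CPM in EMM from 8.44, 7.86 and 10.0 in YES.

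In heat against H2O2, both from rich-medium cultures stressed for 15 min, 141 of 568 narrow clusters (24.8%) passed in edgeR, 82 higher and 59 lower. The background was 25.3%, with 14.0% higher and 11.3% lower. Of the narrow calls 58.2% were higher, and 32.3% with library totals, which moved the median log2 change of all clusters from −0.01 to −0.22. Without H2O2 replicate 2 the called share was 15.7%. SPNCRNA.1529, SPCPB16A4.06c and prl26, a polyadenylated noncoding RNA, were the largest in favour of heat, and trm44, osr1 and SPCC663.08c in favour of H2O2. prl26 had 19.6, 16.2 and 15.9 CPM after heat and 2.43, 1.71 and 1.56 after H2O2, a log2 difference of 3.20 ± 0.26 (SE), and was chosen through heat, as were SPNCRNA.1529 and SPCPB16A4.06c.

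**Figure D4:**
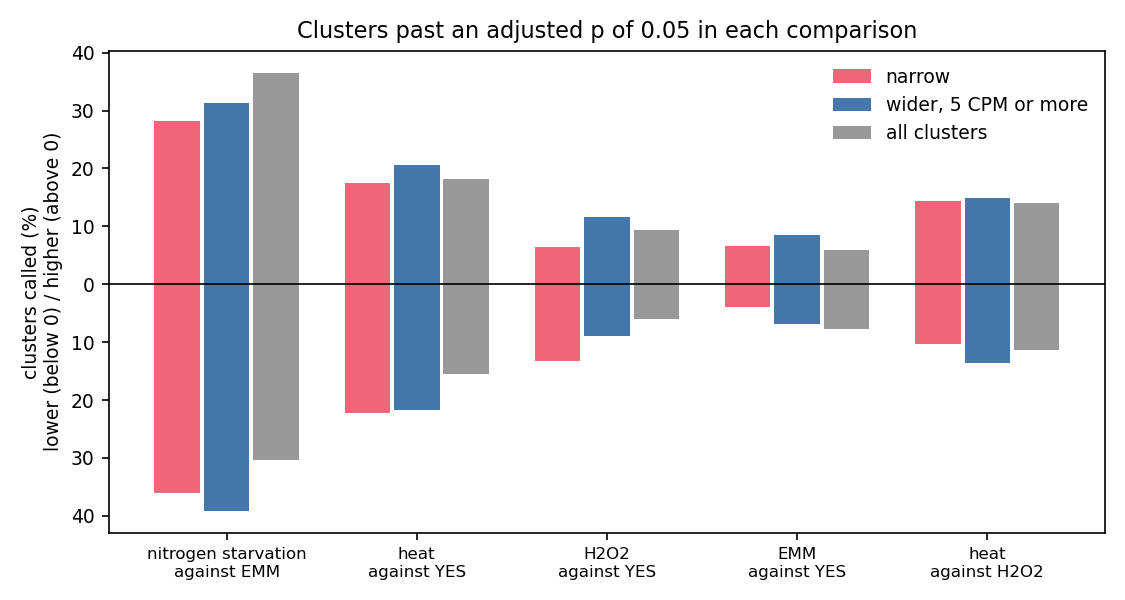
Percentage of clusters past an adjusted p of 0.05 in each comparison, higher above 0 and lower below it, for the narrow clusters, the wider clusters of at least 5 CPM and all clusters. In H2O2 against YES the narrow bar is shorter above 0 (6.51%) and longer below it (13.2%) than the other two sets.

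Over the 5 comparisons, 463 narrow clusters were called in at least 1 and 105 in none. Neither this count nor that of calls in all 5 was made over all clusters, so no background is given. Calls in all 5 were made at SPAC4F10.17, mel1, zrt1, gal1, osr1 and met1, of which gal1 and met1 are named after their values were seen. SPAC4F10.17 was chosen through heat and osr1 through H2O2, so their calls in comparisons with those groups are a description. Group means reached 5 CPM in every group at 423 narrow clusters, and in a single group at 25.

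Narrow clusters were 10.3% of the 5507 clusters of at least 5 CPM, so short gene lists can hold few or none. No narrow cluster lay in the 18 chaperone genes, the 11 core stress genes or the 5 thiamine genes found in the tables, whose main clusters had median widths of 1611.5, 304 and 1091 bp. In heat against YES, 17 of the 18 chaperone main clusters and all 11 core stress main clusters were higher. The oxidative defence list gave 1 narrow cluster in 17 genes, osr1, and the glycolysis list 1 in 17, tdh1. The histone list gave 1 in 10, pht1, and the list for mating and nitrogen 1 in 29, isp3. In nitrogen starvation against EMM, 23 of the 29 main clusters of that last list were higher and 3 lower, isp3 among the lower.

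Motifs and responses were set side by side. Heat raised 23.8% of the 151 narrow clusters with TATA and 15.1% of the 417 without it, and among wider clusters the shares were 27.8% and 18.2%. H2O2 raised 10.6% and 5.04%. Of the different clusters named in starvation, heat, H2O2 or EMM, 16 of the 22 increases and 8 of the 16 decreases held TATA, against 26.6% of all narrow clusters. The named clusters were picked for large changes, and some are in both lists. In addition, osr1 and SPCC663.08c are nearly identical over the 50 bases before the peak. With the Atf1 core TGACGT, 37.0% of 46 narrow clusters were higher after heat, against 15.7% without it, and 15.2% against 5.75% after H2O2. Wider clusters with TGACGT were higher in 49.3% after heat and 36.5% after H2O2, and those without it in 18.8% and 10.1%. These shares carry no test, because clusters share libraries and genes.

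Starts that compete within a gene were compared by usage, the share of the gene's tags that begin at the narrow cluster. It was tested with edgeR's diffSpliceDGE in genes with at least 2 clusters that each held 10% of the tags in some group, which covered 171 narrow clusters. Usage changed at 38 of 171 (22.2%) in nitrogen starvation against EMM, where the background over 3981 tested clusters was 40.6%. It changed at 24 (14.0%) in heat against YES, background 19.7%, at 6 (3.51%) in H2O2 against YES, background 7.13%, at 12 (7.02%) in EMM against YES, background 11.2%, and at 19 (11.1%) in heat against H2O2, background 19%. The narrow clusters were below the background in each comparison. Wider clusters of at least 5 CPM had 29.3%, 15.0%, 5.72%, 9.93% and 13.5%. After heat the narrow share of the gene fell in 19 of the 24 and rose in 5, whereas wider clusters split 116 higher to 112 lower.

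ubi4, which encodes polyubiquitin, has 2 start clusters, and the narrow one gave the larger share after heat. Its share of the gene's tags was 80.0%, 82.6% and 80.0% in the heated libraries, 42.5%, 52.4% and 60.6% in those given H2O2, and 15.7%, 20.6% and 15.5% in unstressed YES (edgeR adjusted p 1.42e-04 for H2O2 and 2.47e-07 for heat). It also rose from 26%, 28.2% and 41.5% in EMM to 73.4%, 85.2% and 83.0% in starvation. Its level went from 9.06 ± 2.41 CPM in YES to 71.6 ± 6.77 after heat (SD, n = 3), while the other start went from 42.9 ± 2.49 to 16.9 ± 1.0.

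In other genes the level of the narrow cluster overlapped between groups while its share differed. nup211, a nuclear pore protein gene, had 9.35, 11.4 and 10.4 CPM at the narrow cluster in YES and 10.8, 9.32 and 11.0 after heat, but its share fell from 81.2%, 92.8% and 90.6% to 32.2%, 26.9% and 34.1% (edgeR adjusted p 9.58e-08). The gene's other starts went from 1.38 ± 0.69 CPM to 23.2 ± 2.05 (SD, n = 3). SPBC14F5.10c, a ubiquitin ligase gene, had 71.9% ± 6.42 of its tags at the narrow cluster after H2O2 and 17.9% ± 2.71 after heat, when its other start stood at 143 ± 11.3 CPM. At SPNCRNA.1382 the share was 66.5% ± 11.0 after H2O2 and 17.4% ± 4.01 after heat.

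At SPBC3H7.08c, uncharacterized, the groups did not overlap in starvation but lay close, at 7.18 ± 0.60 CPM in EMM and 5.89 ± 0.30 starved, while the share went from 93.9% ± 2.81 to 20.9% ± 3.59 (edgeR adjusted p 1.05e-08). SPBC530.07c, of the TENA/THI family, gave 40.1% ± 3.32 of its tags at the narrow cluster in YES and 0.886% ± 0.29 in EMM (edgeR adjusted p 5.88e-18). Its other start was at 49.3 ± 5.52 CPM in YES and 1704 ± 188 in EMM.

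psu2 and fur4 went the other way in starvation. The narrow psu2 cluster, which lies in the 5′ UTR of the annotated gene, took 99.1%, 99.3% and 99.4% of the tags starved and 0%, 16.7% and 12.5% in EMM, where the whole gene had few tags. At fur4 it took 62.2%, 56.2% and 80.6% starved and 1.58% to 2.11% in EMM, while the gene's other starts stood at 18.3 ± 1.25 CPM against 10.2 ± 0.66. After H2O2 the share at stb3, a transcription factor gene, fell to 35.6% from 85.1% (edgeR adjusted p 0.0108), and the trm44 cluster gave 44.0% of the tags counted for its gene. In EMM against YES the share at pcl1 rose to 49.8% from 11.9%, and that at SPAC2H10.01 fell to 5.88% from 36.3%. The SPCPB16A4.06c start went from 27.7% in YES to 87.4% after heat.

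Usage counts depended on single libraries. Without YES replicate 3 the shares called were 8.14% in heat, 2.33% in H2O2 and 4.07% in EMM against YES. Without EMM replicate 2 or 3 the last was 4.12% or 4.09%, and in heat against H2O2 it was 5.78% without H2O2 replicate 2 and 5.20% without heat replicate 1 or 3.

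**Figure D5:**
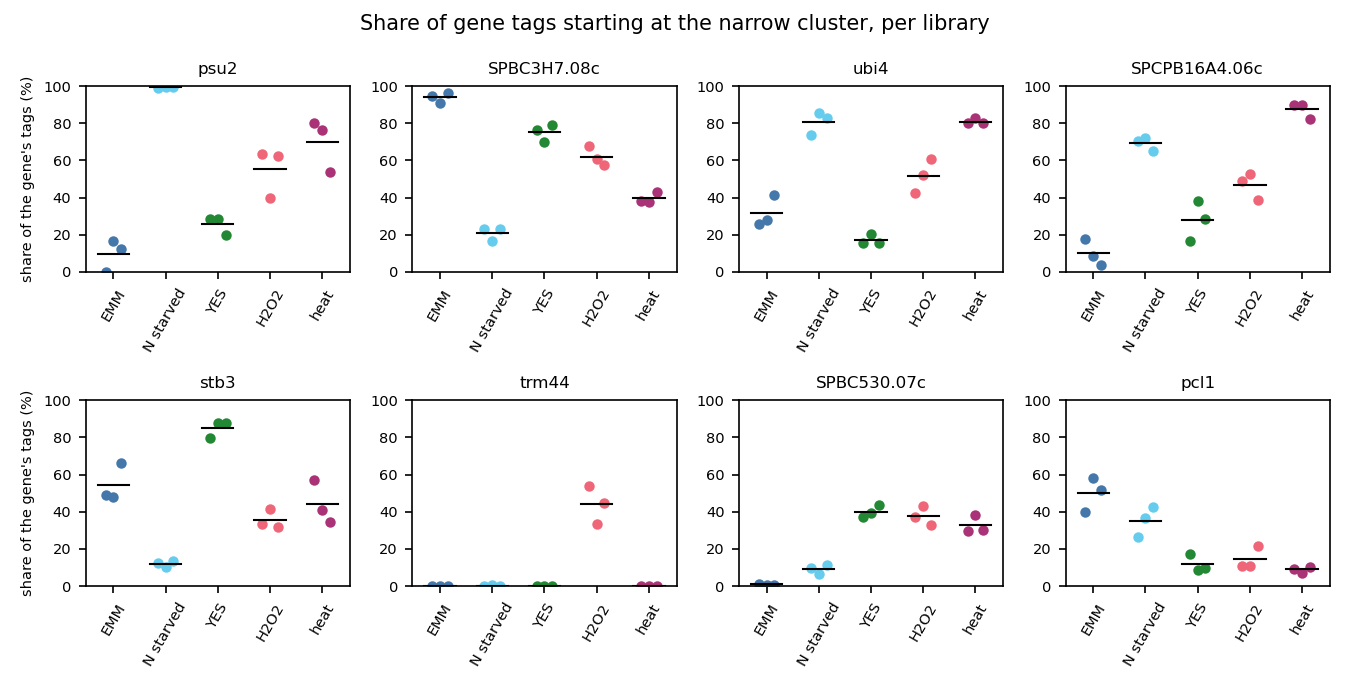
Share of each gene's tags, in percent, that start at the narrow cluster in each library for the clusters with the 2 largest changes in 4 comparisons, with points for libraries and a line for the group mean. ubi4 stands at 15.5 to 20.6% in YES and 80.0 to 82.6% after heat, and psu2 reaches 99% or more in starvation.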

How the data were processed

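CAGE tags were counted in 15 libraries of Schizosaccharomyces pombe, 9687729 to 21822930 tags each. The authors deposited raw counts per start-site cluster, counts per gene and a list of clusters with each peak and its mean CPM. The submitters' processing notes name CASAVA 1.6, Bowtie 0.12.7 and the build ASM294v2, while clustering and CPM settings are not given in the sources used here. The genome read here is RefSeq's newer ASM294v3, and 0 clusters passed a chromosome end. A pyrimidine-purine step at 85.1% of peaks, against 4.71% and 2.84% with peaks moved by 1 base either way, showed that deposited coordinates fit it, in each of 64 windows of 200 kb (lowest share 76.8%).

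Clusters were placed in genes by matching sums of cluster counts to the deposited gene counts, which worked for 5886 genes. CPM values per library used here are counts over the TMM-scaled library total. Quasi-likelihood tests used edgeR 4.0.16 in R 4.3.3, with all 15 libraries in 1 fit, TMM scaling and filterByExpr, which kept all 13003 clusters. DESeq2 1.42.0, other scalings, a minimum change of 1, other limits for width and level, and leaving out each library were alternatives. The steps were tested on simulated data. P-values measure the spread between parallel cultures. Each SE is the size of the log2 change divided by the square root of the test's F statistic. It is an approximation that is unreliable where a group holds few tags. Libraries of 1 group differed by far more than sampling noise, so none was a copy. The members, gene lists and motifs were chosen with earlier results of these data known. A mean below 5 CPM over the other 12 libraries marked a cluster as chosen through 1 group, a check made after the values were seen. Named clusters are, per comparison, the 6 largest increases and 4 largest decreases among calls whose groups do not overlap, the 10 highest, the listed genes, and the 3 largest usage changes.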

Additional observations from a re-analysis of the deposited data

Results flagged for a closer look

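Heat and H2O2 libraries differed at 16 of the narrow clusters named above for large changes in heat or H2O2 against YES. The measure was edgeR's test of heat against H2O2 (adjusted p under 0.05 over all clusters, and groups that do not overlap). Where a cluster was chosen through its heat or H2O2 level, as listed last, the level limit helps to fix that outcome. The contrasts of heat and of H2O2 against YES share the YES cultures, and the difference was taken between the 2 stressed groups directly. Log2 differences, heat over H2O2, were 5.75 at SPNCRNA.1529, 3.69 at SPCPB16A4.06c, 3.06 at SPBC1105.13c, 2.72 at SPAC4F10.17, 1.62 at the chromosome III cluster with no gene, 1.30 at SPAC4H3.03c and 0.38 at nog1. They were −10.49 at trm44, −8.13 at osr1, −7.26 at SPCC663.08c, −2.56 at SPNCRNA.772, −1.80 at gln1, −1.55 at tos4, −1.49 at mae2, −0.99 at mel1 and −0.98 at zrt1. At osr1 the heat change against YES was −1.20 and the H2O2 change 6.93, in opposite directions. At SPCPB16A4.06c, SPBC1105.13c, SPAC4F10.17 and SPAC4H3.03c both stresses gave an increase, larger after heat. Of the 16, SPNCRNA.1529, SPCPB16A4.06c, SPBC1105.13c, SPAC4F10.17 and the cluster with no gene were chosen through their heat level and trm44, osr1 and mae2 through their H2O2 level, so their differences are a description.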

How the results depend on the processing

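Of the shares called, those with a minimum log2 change of 1 were far smaller, at 21.3% in starvation, 4.93% in heat, 2.29% in H2O2, 1.76% in EMM against YES and 2.64% in heat against H2O2, since that test asks for a larger change. Leaving out each library gave ranges of 5.99 to 10.9% in EMM against YES and 15.7 to 21.8% in heat against H2O2 for level, and for usage 8.14 to 11.6% in heat, 2.33 to 4.05% in H2O2, 4.07 to 6.40% in EMM against YES and 5.20 to 8.09% in heat against H2O2. A TATA window of 10 to 60 bases held the motif in 37.7%. Width limits 25 bp below and above 100 bp gave 178 and 1091 clusters and a median 0.935% and 6.44% of a library's tags. The other 120 values kept within 1.5 times the reported one. No named change reversed. For the named changes 640 values held their call and 8 lost it. The losses were at slp1, omt3, spn7 and osr1 with the minimum change and at omt3 without single libraries. Fitting only the 6 libraries compared gave no value for SPNCRNA.1529 in starvation and omt3 in H2O2. Replicate numbers were not treated as pairs, as same-numbered libraries did not all correlate above 0.1 in any comparison. With 3 libraries per group that check cannot exclude a pairing. With the replicate block, 63.4%, 40.5%, 18.3%, 11.3% and 21.7% of narrow clusters were called in the 5 comparisons. A level under 3 counts in a library, 0.116 to 0.342 CPM, cannot be told from 0.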
